A study of Mus musculus with 18 samples.

Results

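Glucose reaches a heart muscle cell through transporters, is split to pyruvate by glycolysis, and is then turned to lactate or burned in mitochondria, while part of it is stored as glycogen. The 43 genes described here encode steps of these routes in the mouse heart. They were taken as all rows of the deposited FPKM table whose gene symbol is on a list of such genes, and they are 43 of 24341 genes in that table. FPKM is a transcript level scaled for transcript length and library size. A low-value filter of at least 1 FPKM in at least 3 libraries left 12587 genes for testing, and 42 of the 43 passed it.

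Hearts came from C57BL/6 mice aged 12 weeks, and the series asks how thyroid hormone and Med13, a subunit of the Mediator complex, shape transcription in the heart. The 18 libraries form 6 groups of 3. Mice labelled cKO (a cardiac-specific knockout of Med13) and wild-type mice (WT) each received PTU followed by T3 (PTU+T3), PTU alone, or normal chow. PTU is propylthiouracil, which stops the thyroid from making its hormone, and T3 is triiodothyronine, the active hormone. Mice went on their diets when 8 weeks old and stayed on them for 4 weeks, and the T3 group then had an injection on each of 3 days. The labels give neither the Cre driver nor the deleted part of Med13, and whether each library is its own animal is not stated, so the p-values rest on a spread between libraries that may be partly technical.

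In glycolysis, hexokinases trap glucose, phosphofructokinase sets the pace of the upper steps, and phosphoglycerate kinase and pyruvate kinase make ATP in the lower ones. Pyruvate enters mitochondria through the MPC carrier and is committed to oxidation by the pyruvate dehydrogenase complex, which kinases (PDK) switch off and phosphatases (PDP) switch on. The adult heart burns mostly fatty acids, with glucose and lactate as further fuels, and thyroid hormone is known to raise its work and its use of oxygen. T3 acts through nuclear receptors that bind DNA elements near their target genes.

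Each library held between 11679 and 12093 genes at 1 FPKM or more, and the deepest stood 1.54 times above the shallowest in relative depth. Read totals are not part of the values, so the absolute depth is not known and counting intervals are not given. Med13 itself read 6.82, 6.50 and 5.44 FPKM in PTU+T3 hearts labelled cKO and 6.29, 5.30 and 5.61 FPKM in WT, 6.05, 4.93 and 5.04 FPKM on PTU labelled cKO and 6.55, 5.57 and 6.96 FPKM in WT, and 6.26, 6.34 and 5.09 FPKM on chow labelled cKO and 5.52, 5.24 and 5.80 FPKM in WT. These gene-level values do not separate the genotypes, so any direction between genotypes rests on the labels. The tissue label was checked with defining markers: the summed level of 8 ventricular cardiomyocyte genes lay between 39290 and 80110 FPKM in every library. Of 10 skeletal muscle fibre markers, 5 stayed under 1 FPKM throughout and Tnni2 was the highest, at up to 20.5 FPKM in 1 heart; the sum of all 10 lay between 1.93 and 24.5 FPKM. A sum over 7 atrial genes ranged from 755 to 10350 FPKM. In 1 of the alternatives the heart with the highest atrial sum is left out from each group. Nppa makes up much of this sum, so that heart is not always the highest in Myl7, Myl4 and Sln. It was the highest in these in cKO PTU+T3, WT PTU and WT chow, and not in cKO PTU, cKO chow and WT PTU+T3. In cKO PTU, replicate 2 was left out (Nppa 10081 and Myl7 49.2 FPKM), while replicate 3 had 3955 and 799 FPKM.

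Most members were expressed at a solid level in every heart. In 41 of the 43 the level reached 1 FPKM in all 18 libraries, Stbd1 reached it in 12, and Aldoc, a brain-type aldolase, stayed between 0.01 and 0.258 FPKM and was not tested. In WT chow hearts the most abundant members were Gapdh with 2839 ± 279 FPKM, the muscle aldolase Aldoa with 1858 ± 202 FPKM, the muscle enolase Eno3 with 1490.3 ± 169.8 FPKM and the heart-type lactate dehydrogenase Ldhb with 1286 ± 247 FPKM (SD, n = 3 each). The spreads (1 SD) of Aldoa and Eno3 overlap, as do those of Eno3 and Ldhb, so the order of these neighbours is not settled. Among tested members at the other end, Pdk3, a pyruvate dehydrogenase kinase, had 3.66 ± 1.75 FPKM and Pfkfb1, which sets fructose-2,6-bisphosphate, had 4.18 ± 2.94 FPKM.

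Members changed with hormone state in both genotypes and did not pass the test between genotypes. With T3 against PTU, 7 of 7 lower glycolysis transcripts rose labelled cKO and 4 of 7 in WT, and 5 of 5 transcripts of pyruvate entry and pyruvate dehydrogenase rose labelled cKO and 4 of 5 in WT. Pdk4 and the glycogen branching enzyme Gbe1 also rose at both genotype labels, and GLUT1 (Slc2a1), Hk1, Ldha, Pdk1 and the phosphorylase Pygb fell at both. On PTU against chow several of the same genes stood the other way. In hearts labelled cKO, PTU+T3 against PTU gave 27 called members of 42 (64.3%), where limma called 46.7% of all tested genes. Of these members 21 were higher, beside 24.9% of all tested genes, and 6 were lower, beside 21.8%. In WT the same comparison gave 25 of 42 (59.5%), beside 44.1% of all tested genes, with 14 higher (22.3% of all tested genes) and 11 lower (21.8%). PTU against chow gave 13 of 42 members labelled cKO (31.0%), beside 16.0% of all tested genes, with 3 higher (6.44% of all) and 10 lower (9.59%). In WT it gave 13 of 42 as well (31.0%), beside 16.8% of all tested genes, with 2 higher (8.02% of all) and 11 lower (8.76%). With T3 against PTU the groups of 3 did not overlap for 29 of 42 members labelled cKO, beside 55.4% of all tested genes. In WT this held for 28 of 42, beside 50.7%. On PTU against chow it held for 15 of 42 labelled cKO, beside 32.4% of all tested genes, and for 20 of 42 in WT, beside 35.6%. The count of 15 is near the share of all tested genes. A call means a limma p-value adjusted by the Benjamini-Hochberg method over all tested genes of under 0.05, with no minimum fold change, and fold changes are on the log2(FPKM + 1) scale, which understates the change of low genes. In whole-heart RNA, fewer cells of a type and less RNA per cell cannot be told apart.

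**Figure D1:**
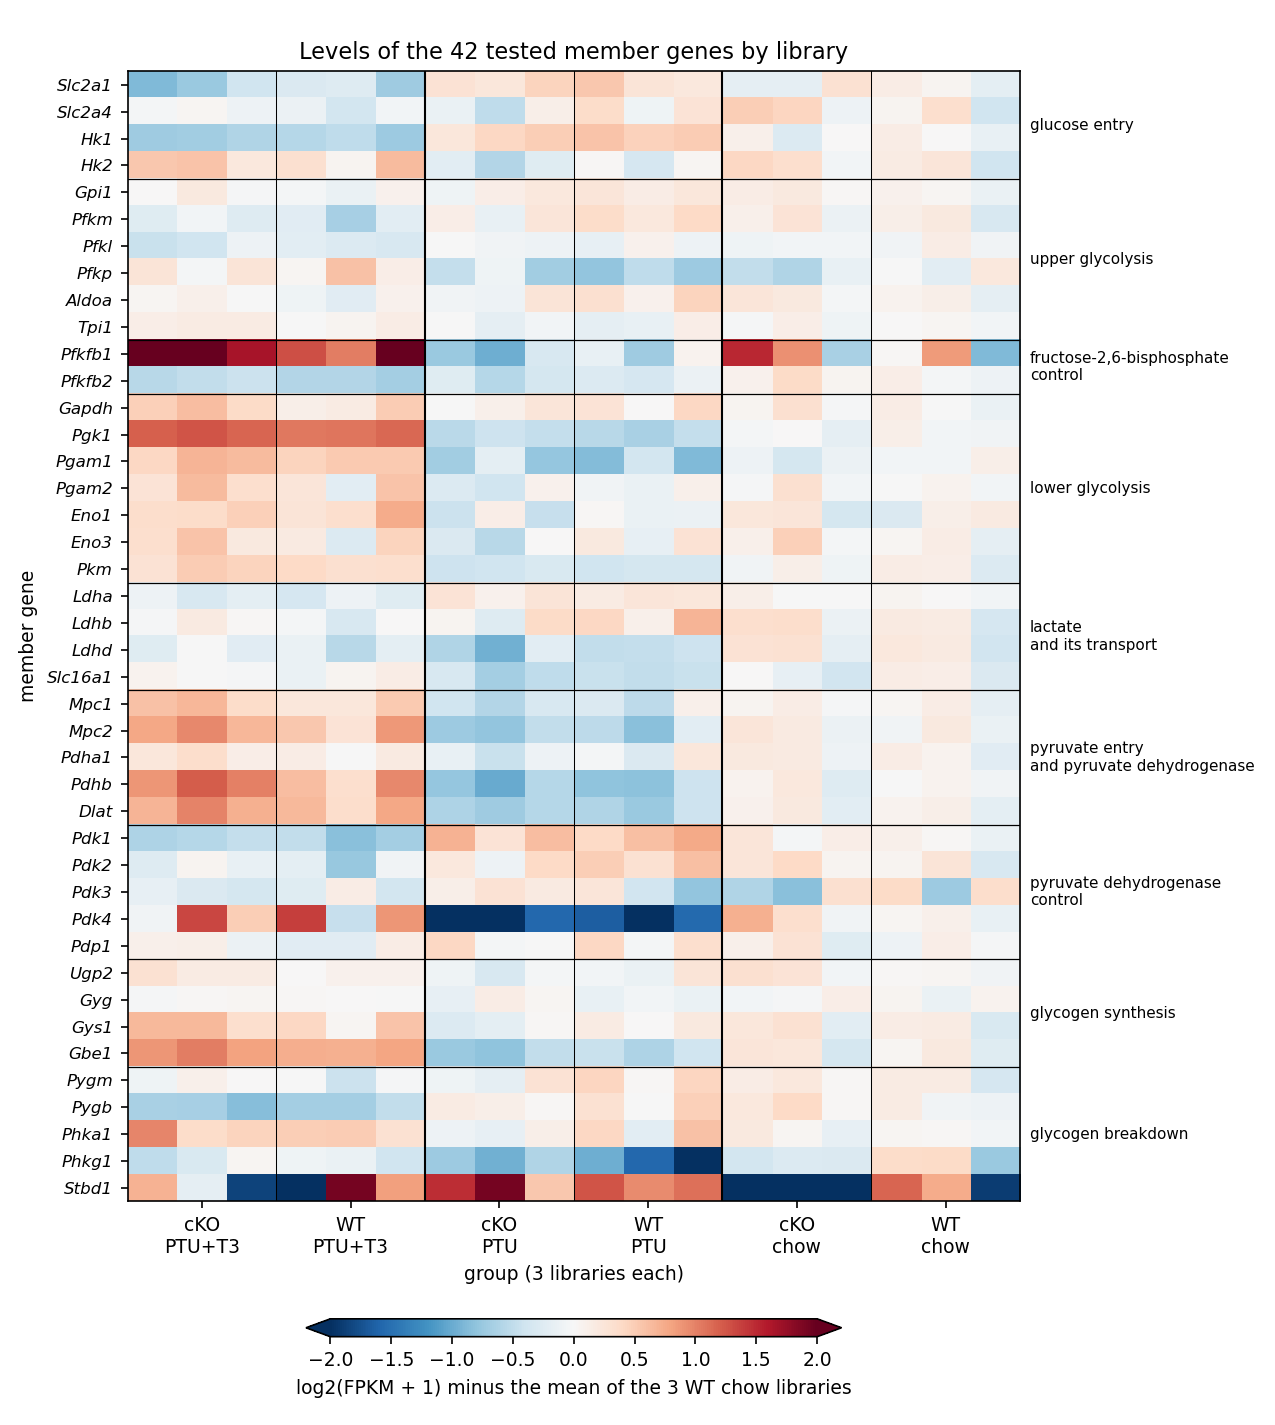
Heat map of the 42 tested members (rows, grouped by role) in the 18 libraries (columns, 3 per group). Colour is log2(FPKM + 1) minus the mean of the 3 WT chow libraries, capped at -2 and 2. Pgk1, Pgam1, Eno1, Pkm, Mpc1, Mpc2, Pdhb, Dlat and Gbe1 are redder in PTU+T3 hearts than in PTU hearts, while Hk1, Pdk1 and Pygb are bluer. In WT, PTU+T3 and PTU hearts overlap in Gapdh, Pgam2, Eno3 and Pdha1.

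The median log2 fold change of the 42 members with T3 against PTU was 0.41 in hearts labelled cKO and 0.13 in WT, beside medians of 0.0008 and -0.0012 over all tested genes. On PTU against chow it was -0.26 in hearts labelled cKO and -0.047 in WT, beside 0.0017 and -0.0001 over all tested genes. The members' medians are given for the FPKM as deposited only. In WT the lean to higher calls with T3, 14 against 11, was not kept under quantile normalization or upper-quartile scaling. The PTU libraries serve in both comparisons, as the group over which T3 acts and as the group set against chow, so opposite movements of one gene in them are not independent.

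Each comparison between single groups was repeated under 15 alternatives. Of the calls with T3, 17 of 27 labelled cKO and 19 of 25 in WT held under all of them. In WT, those of Aldoa, Ldhb and Pygm ended under 6 or 7, among them leaving out WT PTU replicate 1 or 3 or WT PTU+T3 replicate 2, with adjusted p up to 0.171. Eno1 ended without WT PTU replicate 2 (adjusted p = 0.0767), WT PTU replicate 3 (0.0737) or WT PTU+T3 replicate 3 (0.141), and Pfkfb1 without WT PTU replicate 2 (0.0637) or WT PTU+T3 replicate 3 (0.0776). Quantile normalization turned the split of T3 calls to 16 higher and 11 lower labelled cKO and to 13 higher and 14 lower in WT. Upper-quartile scaling gave 18 higher and 7 lower labelled cKO and 14 higher and 14 lower in WT.

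Of the calls on PTU against chow, 6 of 13 labelled cKO (Dlat, Gbe1, Mpc2, Pdhb, Pdk4 and Pfkfb2) and 3 of 13 in WT (Dlat, Pdk1 and Pgk1) held under all 15. Without cKO chow replicate 2 the count labelled cKO was 7, and without WT PTU replicate 1 the WT count was 7. Quantile normalization gave 6 higher and 12 lower in WT. Labelled cKO, Pkm and Mpc1 each ended without cKO chow replicates 1 or 2 or cKO PTU replicates 1 or 2, with adjusted p in these up to 0.14 and 0.101. In WT, Pkm ended without WT chow replicate 1 (adjusted p = 0.128) or 2 (0.113) and without each of WT PTU replicates 1 to 3 (0.0871, 0.0567 and 0.0645). Pfkp ended there without WT chow replicate 3 (0.0654) or WT PTU replicate 1 (0.0582). Mpc2 ended without any of WT chow replicates 1 to 3 or WT PTU replicates 1 or 2, with adjusted p up to 0.182, and Slc16a1 without WT chow replicates 1 or 2 or WT PTU replicates 1 or 2, with adjusted p up to 0.0939.

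Glucose entry changed at the less abundant of its listed transporters and at its hexokinases. Slc2a1 encodes GLUT1, the basal glucose transporter (chromosome 4, 119108745 to 119137330, GRCm38). Its level was 4.08, 4.61 and 6.09 FPKM in PTU+T3 hearts labelled cKO and 6.69, 6.85 and 4.73 FPKM in WT, against 10.4, 9.97 and 11.8 FPKM in PTU hearts labelled cKO and 12.6, 10.2 and 9.85 FPKM in WT. All 6 PTU+T3 hearts lay below all 6 PTU hearts, and the gene fell in hearts labelled cKO (log2 fold change -1.0, SE 0.162, adjusted p = 0.000123) and in WT (log2 fold change -0.75, SE 0.162, adjusted p = 0.00147). Chow hearts had 7.24, 7.27 and 10.6 FPKM labelled cKO and 9.35, 8.69 and 7.19 FPKM in WT, all above the PTU+T3 hearts and partly among the PTU hearts. Slc2a4, the insulin-regulated GLUT4 and the more abundant transporter, was not called in any comparison and ranged from 148 to 295 FPKM over the 18 hearts. Slc2a1 made up 1.965% to 6.309% of the summed level of both.

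Hk1, the hexokinase found in most tissues (chromosome 10, 62268855 to 62379920), fell with T3 as well. It read 43, 43.6 and 46.8 FPKM in PTU+T3 hearts labelled cKO and 47.7, 49.9 and 42.7 FPKM in WT, then 83.8, 95.5 and 101 FPKM in PTU hearts labelled cKO and 106, 99.0 and 102 FPKM in WT, and 76.2, 59.1 and 71.7 FPKM on chow labelled cKO and 78.7, 71.5 and 64.3 FPKM in WT. The 3 treatments did not overlap: PTU was highest, chow came next and PTU+T3 was lowest. With T3 against PTU it fell in hearts labelled cKO (log2 fold change -1.05, SE 0.104, adjusted p = 1.06e-06) and in WT (log2 fold change -1.11, SE 0.104, adjusted p = 6.98e-07). On PTU against chow it rose by a log2 fold change of 0.43 labelled cKO (adjusted p = 0.0109) and 0.51 in WT (adjusted p = 0.00355). These PTU calls ended with the hearts of highest atrial sum left out. The log2 fold changes were then 0.45 labelled cKO (adjusted p = 0.0625) and 0.41 in WT (adjusted p = 0.0928). Labelled cKO, the call also ended without cKO chow replicate 2 (0.058).

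Hk2, the hexokinase of insulin-responsive muscle, went the other way. It rose with T3 in hearts labelled cKO, to 62.5 ± 8.33 against 36.1 ± 5.11 FPKM on PTU (log2 fold change 0.78, SE 0.191, adjusted p = 0.00354), while in WT it stood at 58.4 ± 12.0 and 43 ± 6.25 FPKM and was not called (adjusted p = 0.0837). Hk2 made up 60.8, 60.9 and 53.0% of the summed Hk1 and Hk2 level in PTU+T3 hearts labelled cKO and 54.4, 48.6 and 62.5% in WT, against 32.0, 24.0 and 27.7% in PTU hearts labelled cKO and 30.4, 26.6 and 31.6% in WT. On chow the share was 44.6, 49.4 and 38.0% labelled cKO and 39.5, 43 and 34.8% in WT. No PTU+T3 heart overlapped a PTU heart in this share, which is given as a description without a test.

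In upper glycolysis, 1 of 6 tested members was higher and 1 lower with T3 against PTU labelled cKO, and 1 was higher and 2 were lower in WT. Over all tested genes, limma called 46.7% and 44.1%, above the members' share labelled cKO (33.3%) and near their share in WT. Gpi1, glucose phosphate isomerase, and Tpi1, triose phosphate isomerase, were called in no comparison, with Gpi1 ranging from 226 to 295 FPKM and Tpi1 from 594 to 761 FPKM over all hearts. Pfkm, the muscle phosphofructokinase, had 399, 457 and 396 against 521, 428 and 562 FPKM in hearts labelled cKO and was not called (adjusted p = 0.185). In WT it fell with T3 to 405, 297 and 410.5 FPKM, against 608, 547 and 624 FPKM on PTU (log2 fold change -0.69, SE 0.159, adjusted p = 0.00244). The minor platelet-type subunit Pfkp rose with T3 to 24.9, 20.1 and 24.9 against 14.7, 19.4 and 12.5 FPKM labelled cKO (log2 fold change 0.57, SE 0.174, adjusted p = 0.0132) and to 21.3, 31.8 and 22.9 against 11.6, 14.3 and 12.1 FPKM in WT (log2 fold change 0.93, SE 0.174, adjusted p = 0.000481), without overlap in either. The call labelled cKO ended without cKO PTU replicate 3 (adjusted p = 0.0695) and under upper-quartile scaling (0.0572).

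Pfkm still supplied 80.6% to 91.8% of the summed phosphofructokinase level in every heart. The liver-type subunit Pfkl fell by 0.25 on the log2 scale with T3 in hearts labelled cKO (adjusted p = 0.0399), lost under 8 of 15 alternatives, which include leaving out each of cKO PTU replicates 1 to 3 and cKO PTU+T3 replicates 1 and 2, with adjusted p up to 0.231. Aldoa stood at a log2 fold change of 0.0079 with T3 labelled cKO (adjusted p = 0.967), which turned to -0.35 under quantile normalization, and fell by 0.36 in WT (adjusted p = 0.0413).

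Fructose-2,6-bisphosphate, the strongest activator of phosphofructokinase, is made and removed by the 6-phosphofructo-2-kinases. Pfkfb1, the form first known from liver and skeletal muscle (chromosome X, 150587445 to 150643878), had 21.9, 33.5 and 13.4 FPKM in PTU+T3 hearts labelled cKO and 10.2, 8.34 and 22.0 FPKM in WT, against 1.75, 1.35 and 2.70 FPKM in PTU hearts labelled cKO and 3.18, 1.81 and 3.83 FPKM in WT. On chow it scattered over 12.1, 7.66 and 1.93 FPKM labelled cKO and 3.70, 7.33 and 1.51 FPKM in WT. It was higher in every PTU+T3 heart than in any PTU heart, and rose by a log2 fold change of 2.97 labelled cKO (SE 0.553, adjusted p = 0.000614) and 1.80 in WT (SE 0.553, adjusted p = 0.0172), the widest standard errors among members that rose with T3. Pfkfb2, the heart form, was called lower with T3 against PTU in WT alone, and on PTU against chow labelled cKO alone. It had 26.8, 21.4 and 25.1 FPKM in PTU hearts labelled cKO and 26.4, 25.2 and 29.4 FPKM in WT. It had 22.5 ± 0.955 FPKM in PTU+T3 hearts labelled cKO and 20.6 ± 0.725 FPKM in WT, below 36.4 ± 4.83 FPKM on chow labelled cKO and 32.2 ± 2.79 FPKM in WT, and fell against chow in both (log2 fold change -0.66, SE 0.101, adjusted p = 0.000401 labelled cKO; log2 fold change -0.62, SE 0.101, adjusted p = 0.00122 in WT). Of its exon bases 19.5% are shared with Yod1 on the other strand and Gm29427 on the same strand. The library kit does not mark the strand, so strand cannot separate the reads in these shared bases.

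In lower glycolysis, 7 of 7 members were called higher with T3 in hearts labelled cKO and 4 of 7 in WT, and none was lower. Over all tested genes, 24.9% labelled cKO and 22.3% in WT were called higher. Labelled cKO the calls of Gapdh, Pgam2, Eno1 and Eno3 ended under some alternatives, as did that of Eno1 in WT. Gapdh, Pgam2 and Eno3 were not called in WT. Pgk1, phosphoglycerate kinase, the first step that returns ATP (chromosome X, 106187100 to 106203699), had the largest change of the role. It read 879, 919 and 859.9 FPKM in PTU+T3 hearts labelled cKO and 796, 802 and 849.9 FPKM in WT, then 263, 286 and 273 FPKM in PTU hearts labelled cKO and 261, 243 and 273 FPKM in WT, and 374, 382 and 337 FPKM on chow labelled cKO and 415, 369 and 364 FPKM in WT. The 3 treatments formed separate bands with no overlap, and the means with T3 stood 3.23-fold above PTU in hearts labelled cKO and 3.15-fold above it in WT (log2 fold change 1.69, SE 0.0846, adjusted p = 8.03e-10 labelled cKO; log2 fold change 1.65, SE 0.0846, adjusted p = 1.26e-09 in WT).

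On PTU against chow Pgk1 fell by 0.41 on the log2 scale labelled cKO (SE 0.0846, adjusted p = 0.0047) and by 0.56 in WT (SE 0.0846, adjusted p = 0.000382). The call labelled cKO ended when only the compared groups were fitted (adjusted p = 0.0555). PTU+T3 hearts also exceeded chow hearts, by a log2 fold change of 1.28 labelled cKO (adjusted p = 1.69e-07) and 1.09 in WT (adjusted p = 1.51e-06). Pgk1 has 2 near-identical pseudogenes in the annotation, and the handling of reads that match them too is not stated.

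Next along the route, Pgam1, the phosphoglycerate mutase of most tissues, rose to 111, 135 and 130.1 FPKM with T3 in hearts labelled cKO, against 51.2, 73.0 and 48.5 FPKM on PTU, and to 114, 121 and 121 against 45.5, 64.6 and 45.0 FPKM in WT. The groups did not overlap (log2 fold change 1.13, SE 0.150, adjusted p = 1.87e-05 labelled cKO; log2 fold change 1.20, SE 0.150, adjusted p = 1.25e-05 in WT). Its muscle counterpart Pgam2, the main form by level at 85.4% to 95.1% of both, rose by 0.61 labelled cKO (adjusted p = 0.0101; 0.0543 without cKO PTU+T3 replicate 2) and stood at 0.24 in WT (adjusted p = 0.296). Pkm, pyruvate kinase, rose to 801, 934 and 892 FPKM labelled cKO, against 491, 497 and 529 FPKM on PTU, and to 859, 814 and 826 against 497, 515 and 510.4 FPKM in WT. Again all 6 PTU+T3 hearts lay above all 6 PTU hearts (log2 fold change 0.79, SE 0.108, adjusted p = 2.51e-05 labelled cKO; log2 fold change 0.71, SE 0.108, adjusted p = 7.91e-05 in WT).

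The remaining members of this role were less even. The enolase Eno1 rose with T3 by 0.65 labelled cKO (adjusted p = 0.00876) and 0.52 in WT (adjusted p = 0.0299), and both calls ended under quantile normalization (adjusted p = 0.0739 and 0.0967); its close copy Eno1b could share its reads. Eno3 rose by 0.64 labelled cKO (adjusted p = 0.0142) and stood at 0.0068 in WT (adjusted p = 0.982). The call ended without cKO PTU replicate 2 (0.0676) or cKO PTU+T3 replicate 2 (0.0659), and the difference between genotypes had an unadjusted p of 0.0374 and an adjusted p of 0.696. Gapdh, often used as an internal standard, rose by 0.38 labelled cKO (adjusted p = 0.0397), against 0.039 in WT (adjusted p = 0.849). The Gapdh call was lost under 8 of 15 alternatives, which include leaving out cKO PTU replicates 1 or 2 or cKO PTU+T3 replicates 1 or 2, with adjusted p up to 0.187, and 71 other genes, 68 of them pseudogenes, match its transcript closely.

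Upstream sequences of Pgk1 and Pgam1, which rose with T3, of Pdhb from the pyruvate dehydrogenase complex, which rose as well, and of Ldha, which fell, are shown as examples chosen among windows that hold the letters ACGTG. Each is the 250 bases before an annotated start in RefSeq (GRCm38.p6), given 5′ to 3′ on the gene's strand. Capitals mark ACGTG on either strand (read as CACGT on the other), the core shared by hypoxia-response elements and E-boxes, or AGGTCA, the nuclear receptor half-site, on either strand.
Pgk1, chrX:106186850-106187099, plus strand: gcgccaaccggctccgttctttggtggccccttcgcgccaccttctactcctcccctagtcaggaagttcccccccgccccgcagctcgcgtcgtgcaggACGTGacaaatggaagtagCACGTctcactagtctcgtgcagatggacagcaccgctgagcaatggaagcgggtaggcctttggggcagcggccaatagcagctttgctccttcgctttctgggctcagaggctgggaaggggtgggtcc
Pgam1, chr19:41911621-41911870, plus strand: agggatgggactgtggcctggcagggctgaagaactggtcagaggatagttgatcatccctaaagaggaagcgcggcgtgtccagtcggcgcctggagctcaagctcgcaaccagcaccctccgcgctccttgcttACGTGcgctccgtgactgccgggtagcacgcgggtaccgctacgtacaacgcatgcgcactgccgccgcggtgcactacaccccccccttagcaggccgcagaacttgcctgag
Pdhb, chr14:8172993-8173242, minus strand: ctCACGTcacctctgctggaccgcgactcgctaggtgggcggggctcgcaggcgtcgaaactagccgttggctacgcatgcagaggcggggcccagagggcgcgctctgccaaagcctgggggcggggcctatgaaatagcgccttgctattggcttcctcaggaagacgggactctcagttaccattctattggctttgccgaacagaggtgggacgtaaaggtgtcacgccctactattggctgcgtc
Ldha, chr7:46845554-46845803, plus strand: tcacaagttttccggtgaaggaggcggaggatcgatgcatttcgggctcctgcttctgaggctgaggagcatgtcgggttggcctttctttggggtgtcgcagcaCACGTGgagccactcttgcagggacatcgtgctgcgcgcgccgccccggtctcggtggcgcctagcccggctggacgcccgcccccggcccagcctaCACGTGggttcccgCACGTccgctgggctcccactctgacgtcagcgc
In Pgk1 the letters ACGTG start 150 and 131 bases before the start site, in Pgam1 at 114 bases and in Pdhb at 248 bases. In Ldha they occur at 5 positions on either strand, of which 2 pairs overlap as the palindrome CACGTG. None of these 4 stretches holds AGGTCA. The windows of Mpc2, Mpc1 and Dlat, which also rose with T3, and the second window of Ldha hold 0 copies of ACGTG.

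Over the 61 promoter windows of 41 members (250 bases before to 50 after the start), 39.3% held ACGTG, beside 19.6% of all 32851 windows of the same length. The GC box GGGCGG was in 52.5% of members' windows, beside 35.7% of all. The half-site AGGTCA was in 16.4%, beside 16.3%, and its direct repeat (AGGTCA, any 4 bases, AGGTCA) was in 0, beside 0.0152%. Several members have more than 1 window, windows can overlap, and a match of letters is a description, not a binding site.

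Lactate can be made from pyruvate by the muscle-type dehydrogenase Ldha and returned to it by the heart-type Ldhb. Ldha had 597, 513 and 554 FPKM in PTU+T3 hearts labelled cKO and 506, 595 and 537 FPKM in WT, against 772, 674 and 759 FPKM in PTU hearts labelled cKO and 717, 755 and 749 FPKM in WT. Every PTU+T3 heart lay below every PTU heart, and Ldha fell by 0.41 on the log2 scale labelled cKO (SE 0.0914, adjusted p = 0.00183) and by 0.44 in WT (SE 0.0914, adjusted p = 0.00107). Ldhb stood at a log2 fold change of 0.001 labelled cKO (adjusted p = 0.997) and fell in WT (log2 fold change -0.52, SE 0.193, adjusted p = 0.0391). Ldhb made up 61.1% to 73.7% of the summed level of both over all 18 hearts.

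Slc16a1 encodes MCT1, which carries lactate and pyruvate across the cell membrane. It rose with T3 to 96.2, 90.8 and 89.9 FPKM labelled cKO, against 73.3, 57.1 and 64.2 FPKM on PTU, and to 83.0, 95.5 and 101 against 67.1, 64.8 and 67.1 FPKM in WT (log2 fold change 0.51, SE 0.126, adjusted p = 0.00366 labelled cKO; log2 fold change 0.48, SE 0.126, adjusted p = 0.00597 in WT). The call labelled cKO ended under quantile normalization, at a log2 fold change of 0.29 (adjusted p = 0.0511). No PTU heart reached a PTU+T3 heart, and PTU+T3 hearts did not pass the test against chow (adjusted p = 0.315 labelled cKO and 0.936 in WT). Ldhd, the mitochondrial D-lactate dehydrogenase, fell on PTU against chow in hearts labelled cKO, to 14.9, 11.4 and 19.8 against 28.7, 28.8 and 20.5 FPKM (log2 fold change -0.74, SE 0.191, adjusted p = 0.0166). That call ended without cKO chow replicates 1 (adjusted p = 0.0781) or 2 (0.0665), or cKO PTU replicate 2 (0.0687), and 42.2% of its exon bases are shared with Znrf1 on the other strand.

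In pyruvate entry and pyruvate dehydrogenase, 5 of 5 members were called higher with T3 against PTU labelled cKO and 4 of 5 in WT. Over all tested genes, 24.9% and 22.3% were called higher. The MPC carrier is a pair of subunits. Mpc1 rose to 967, 1012 and 827 FPKM labelled cKO, against 487, 425 and 513 FPKM on PTU, and to 749.5, 754 and 925 against 525, 448 and 686 FPKM in WT (log2 fold change 0.98, SE 0.147, adjusted p = 6.02e-05 labelled cKO; log2 fold change 0.57, SE 0.147, adjusted p = 0.00557 in WT). Its partner Mpc2 (chromosome 1, 165461260 to 165481218) rose to 869, 992 and 811 against 306, 293 and 362 FPKM labelled cKO and to 737, 617 and 929.7 against 354, 286 and 442 FPKM in WT (log2 fold change 1.47, SE 0.171, adjusted p = 4.95e-06 labelled cKO; log2 fold change 1.08, SE 0.171, adjusted p = 0.000119 in WT). For both subunits each PTU+T3 heart stood above each PTU heart. The WT call of Mpc1 ended with the hearts of highest atrial sum left out (adjusted p = 0.0839). Of the exon bases of Mpc1, 23.1% are shared with 4930506C21Rik on the other strand.

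Pdhb, the beta subunit of the first enzyme of the complex (chromosome 14, 8165991 to 8173303), had the largest log2 fold change of this role with T3. It read 947, 1196 and 1032 FPKM in PTU+T3 hearts labelled cKO and 794, 649 and 1002 FPKM in WT, then 303, 255 and 346 FPKM in PTU hearts labelled cKO and 293, 292 and 385 FPKM in WT, and 541, 599 and 429.9 FPKM on chow labelled cKO and 512, 542 and 493 FPKM in WT. PTU+T3 hearts lay above chow hearts and chow hearts above PTU hearts, with no overlap. The rise with T3 against PTU was 3.51-fold in means labelled cKO (log2 fold change 1.81, SE 0.169, adjusted p = 6.26e-07) and 2.52-fold in WT (log2 fold change 1.32, SE 0.169, adjusted p = 1.62e-05), and the fall on PTU against chow was 0.79 on the log2 scale labelled cKO (adjusted p = 0.00562) and 0.68 in WT (adjusted p = 0.0118; 0.0525 without WT PTU replicate 1).

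Dlat, the E2 core of the complex (chromosome 9, 50634633 to 50659780), followed the same order. Its values were 203, 252 and 209 FPKM in PTU+T3 hearts labelled cKO and 199.8, 162 and 216 FPKM in WT, 81.9, 76.7 and 84.8 FPKM in PTU hearts labelled cKO and 83.1, 75.7 and 95 FPKM in WT, and 134, 145 and 109 FPKM on chow labelled cKO and 133, 138 and 111 FPKM in WT. The bands did not overlap, and with T3 against PTU Dlat rose by 1.43 (adjusted p = 7.05e-07) labelled cKO and 1.17 (adjusted p = 5.84e-06) in WT. The alpha subunit Pdha1, which carries the phosphorylation sites, moved less. It rose by 0.47 labelled cKO (adjusted p = 0.0133) and stood at 0.14 in WT (adjusted p = 0.461). Of 15 alternatives 4 ended that call, such as leaving out cKO PTU replicate 2 (adjusted p = 0.0668) or cKO PTU+T3 replicate 2 (0.0569), and 16.1% of its exon bases are shared with Map3k15 on the other strand.

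**Figure D2:**
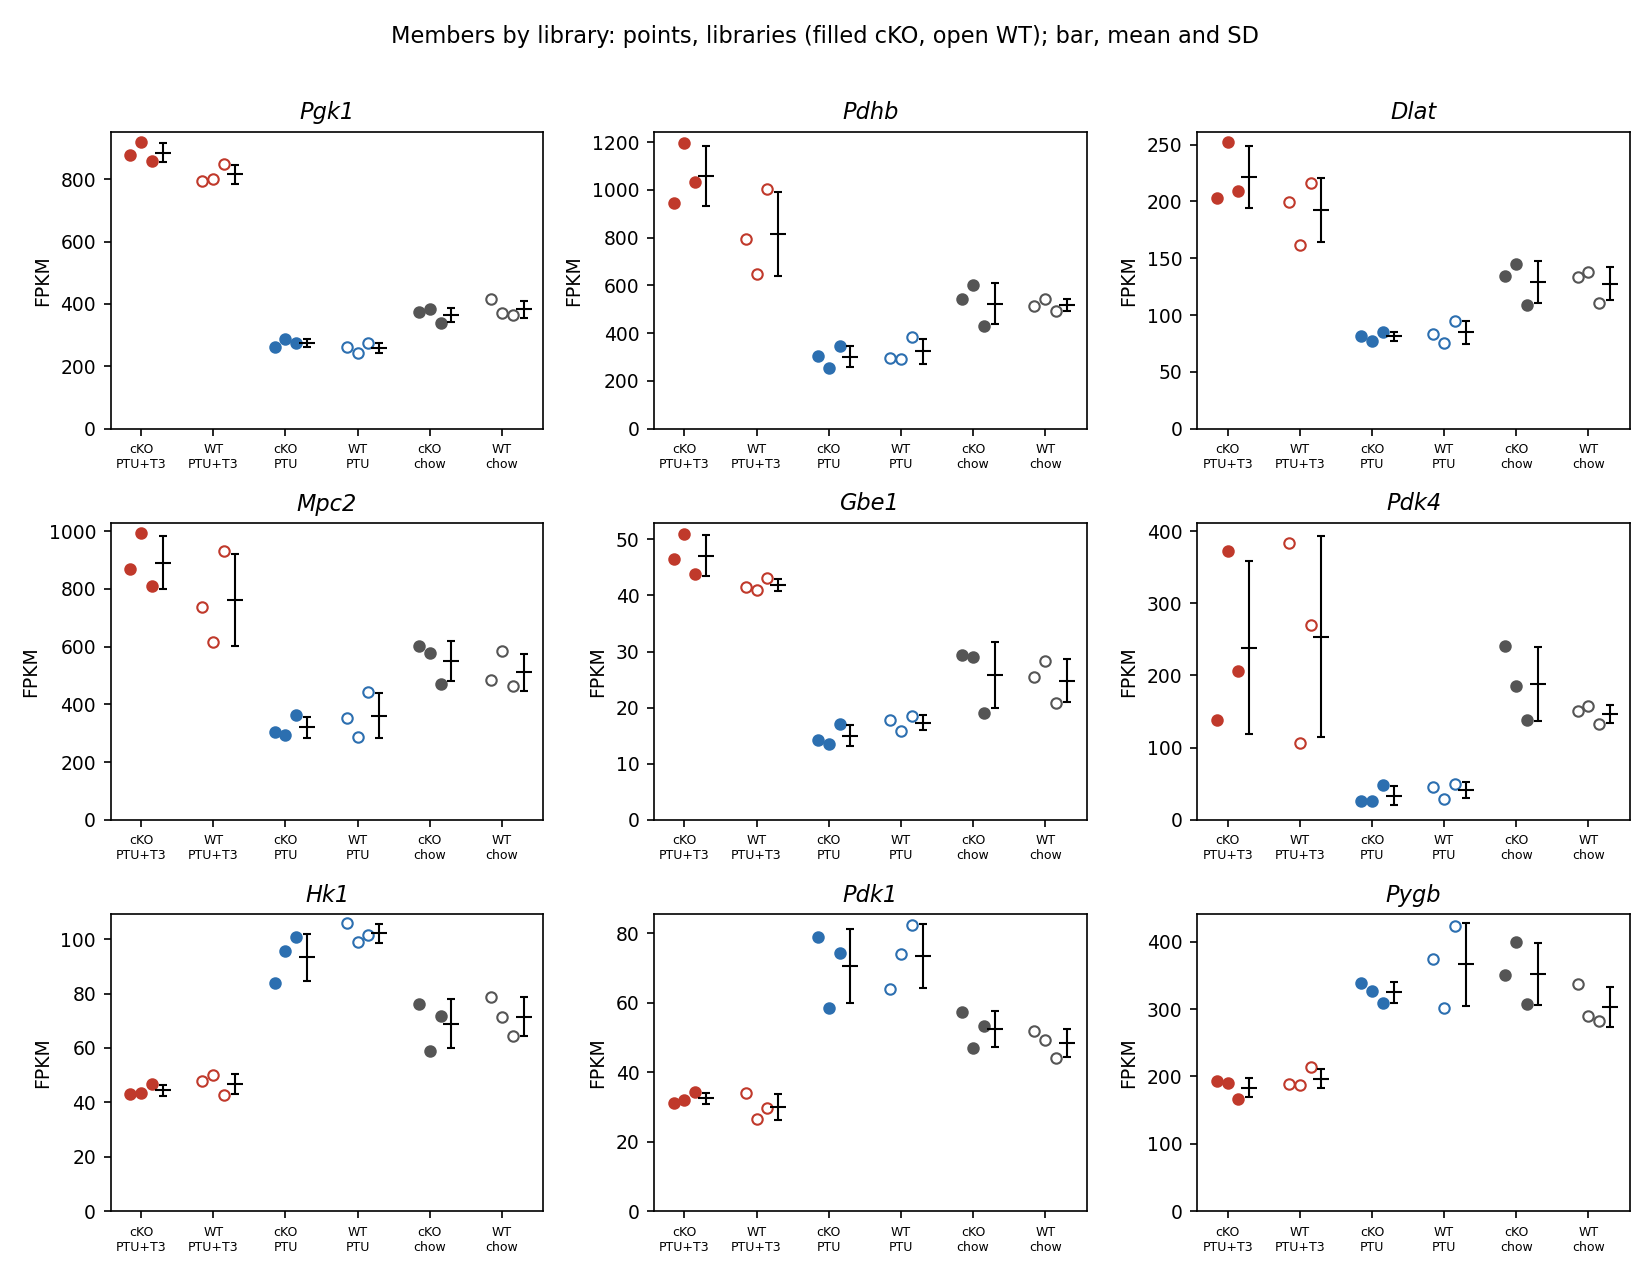
FPKM (vertical axes, from 0) of 9 members in each library, by group along the horizontal axes; filled points are hearts labelled cKO, open points WT, and the bar beside them is the mean with its SD (n = 3). Pgk1, Pdhb, Dlat, Mpc2 and Gbe1 are highest in PTU+T3 hearts and lowest on PTU, Hk1 and Pdk1 run the other way, Pygb is lowest in PTU+T3 hearts and Pdk4 spreads widely among them.

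The kinases that switch pyruvate dehydrogenase off changed in opposite directions. Pdk4, the kinase that rises in fasting in muscle (chromosome 6, 5483351 to 5496278), had 139, 372 and 206 FPKM in PTU+T3 hearts labelled cKO and 383, 107 and 270.2 FPKM in WT, against 25.7, 25.6 and 48.8 FPKM in PTU hearts labelled cKO and 45.8, 28.2 and 49.3 FPKM in WT. On chow it had 241, 186 and 139 FPKM labelled cKO and 150.5, 157 and 133 FPKM in WT. PTU hearts lay apart from and below the others, whereas PTU+T3 hearts overlapped chow hearts and spread widely. Pdk4 rose with T3 (log2 fold change 2.75, SE 0.439, adjusted p = 0.000157 labelled cKO; log2 fold change 2.45, SE 0.439, adjusted p = 0.000461 in WT) and fell on PTU (log2 fold change -2.50, SE 0.439, adjusted p = 0.00211 labelled cKO; log2 fold change -1.85, SE 0.439, adjusted p = 0.0108 in WT). With the hearts of highest atrial sum left out the fall in WT was no smaller, at a log2 fold change of -2.01. It was then no longer called (adjusted p = 0.0934). PTU+T3 did not pass the test against chow (adjusted p = 0.726 labelled cKO and 0.391 in WT).

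Pdk1, a kinase also known as a target of hypoxia signalling (chromosome 2, 71873215 to 71903858), ran opposite to Pdk4. It read 31.2, 32.1 and 34.3 FPKM in PTU+T3 hearts labelled cKO and 34.0, 26.5 and 29.8 FPKM in WT, then 78.9, 58.5 and 74.5 FPKM in PTU hearts labelled cKO and 64.0, 74.0 and 82.4 FPKM in WT, and 57.4, 47.1 and 53.2 FPKM on chow labelled cKO and 51.9, 49.3 and 44.1 FPKM in WT. PTU+T3 hearts were lowest and PTU hearts highest, with no overlap between treatments. It fell with T3 against PTU (log2 fold change -1.08, SE 0.124, adjusted p = 4.41e-06 labelled cKO; log2 fold change -1.26, SE 0.124, adjusted p = 1.21e-06 in WT) and rose on PTU against chow by 0.41 labelled cKO (adjusted p = 0.0346) and 0.59 in WT (adjusted p = 0.00478). The PTU call labelled cKO was lost under 6 alternatives, which include leaving out cKO chow replicates 2 (adjusted p = 0.134) or 3 (0.0586) or cKO PTU replicates 1 (0.139) or 3 (0.0972).

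Pdk2, the most abundant kinase of the set on PTU, had 167, 207 and 179.7 FPKM with T3 labelled cKO, against 232, 186 and 263 FPKM on PTU (adjusted p = 0.208). In WT it fell with T3 to 175, 118 and 189.8 against 281, 248 and 305 FPKM (log2 fold change -0.81, SE 0.183, adjusted p = 0.00208). The makeup of the 4 kinases differed by treatment, given here without a test. Pdk4 made up 40.8, 60.6 and 48.7% of their summed level in PTU+T3 hearts labelled cKO and 64.5, 41.7 and 54.9% in WT, against 7.53, 9.34 and 12.5% in PTU hearts labelled cKO and 11.6, 8.01 and 11.2% in WT. On chow its share was 44.9, 37.3 and 34.3% labelled cKO and 36.2, 35.1 and 38.8% in WT, while Pdk2 held 67.4% to 71.1% in all 6 PTU hearts. Pdk3 ranged from 1.48 to 4.73 FPKM and was not called, and neither was the phosphatase Pdp1, which ranged from 11.4 to 18.4 FPKM.

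**Figure D3:**
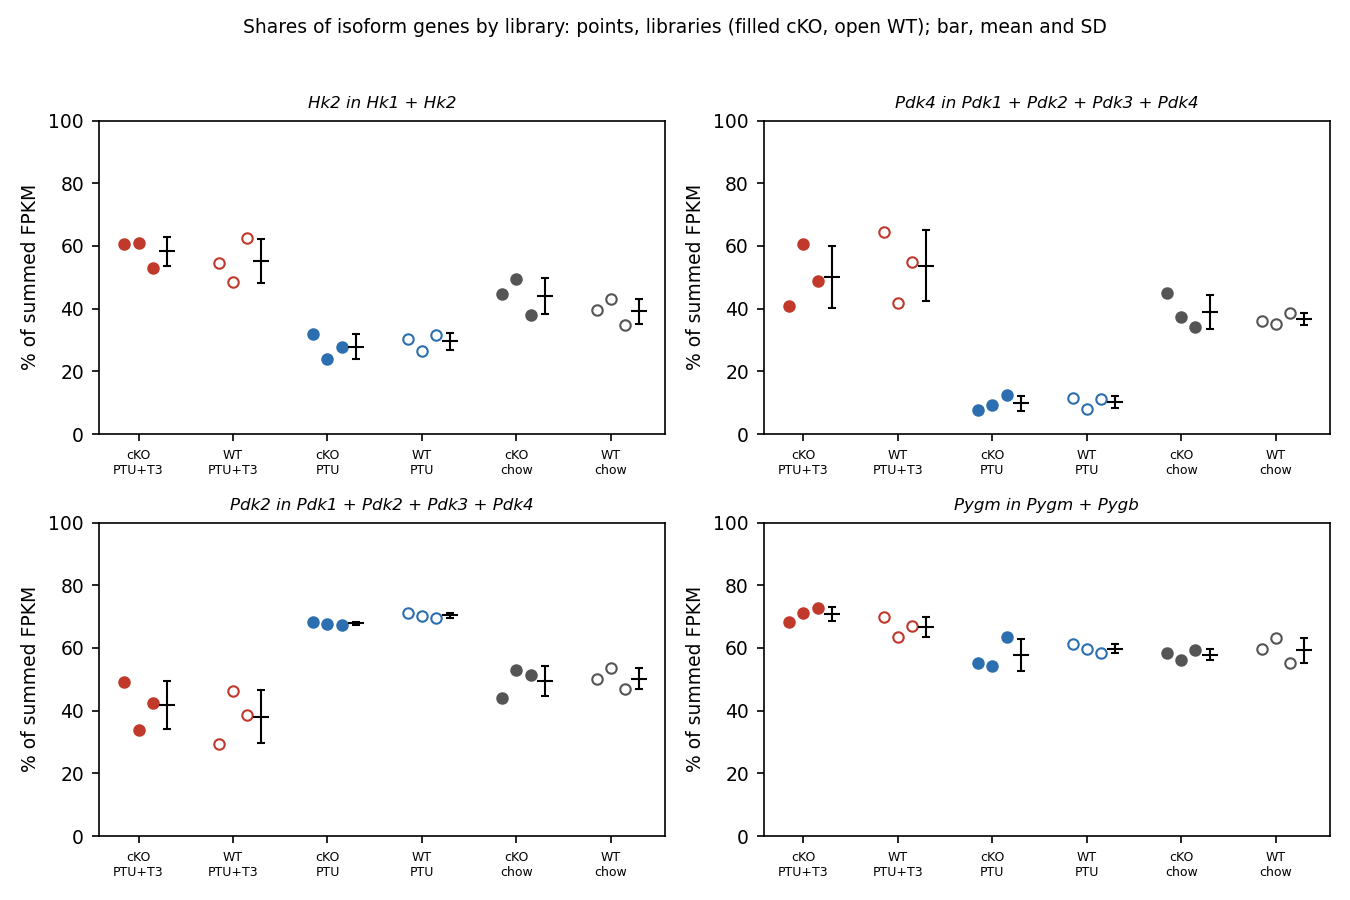
Share (%) of 1 gene in the summed FPKM of its isoform set, per library and group; filled points are hearts labelled cKO, open points WT, and the bar is the mean with its SD (n = 3). Pdk4 lies between 7.53% and 12.5% in PTU hearts and between 40.8% and 64.5% in PTU+T3 hearts, and the Hk2 share is higher in every PTU+T3 heart than in any PTU heart; for Pygm the lowest PTU+T3 heart and the highest PTU heart both stand at 63.5%.

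With T3 against PTU, 3 of the 4 glycogen synthesis members rose labelled cKO and 1 of 4 in WT, beside 24.9% and 22.3% of all tested genes, so the WT share of 25.0% is near that of all genes. Gbe1, the branching enzyme (chromosome 16, 70313949 to 70569720), had 46.5, 51.0 and 43.7 FPKM in PTU+T3 hearts labelled cKO and 41.4, 41.0 and 43 FPKM in WT, against 14.2, 13.6 and 17.1 FPKM in PTU hearts labelled cKO and 17.8, 15.8 and 18.4 FPKM in WT. Chow hearts had 29.5, 29.0 and 19.1 FPKM labelled cKO and 25.4, 28.2 and 20.8 FPKM in WT, between the others without overlap. It rose with T3 (log2 fold change 1.59, SE 0.144, adjusted p = 4.47e-07 labelled cKO; log2 fold change 1.23, SE 0.144, adjusted p = 6.6e-06 in WT) and fell on PTU by 0.73 labelled cKO (adjusted p = 0.00345) and 0.49 in WT (adjusted p = 0.0289). With T3 it exceeded chow by 0.86 labelled cKO (adjusted p = 0.00074) and 0.74 in WT (adjusted p = 0.00364). The WT call on PTU ended without WT chow replicates 1 (adjusted p = 0.0871) or 2 (0.114) or WT PTU replicates 1 (0.0628) or 2 (0.0933).

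Gys1, the muscle glycogen synthase, rose with T3 labelled cKO to 58.1, 58.6 and 46.7 against 30.3, 32.2 and 37.6 FPKM (log2 fold change 0.69, SE 0.166, adjusted p = 0.00301), and read 49.6, 37.7 and 55.3 against 41.4, 37.0 and 42.5 FPKM in WT (adjusted p = 0.306). The genotypes were not shown to differ in this (interaction adjusted p = 0.696). Ugp2, which makes the UDP-glucose used for synthesis, rose by 0.36 labelled cKO (adjusted p = 0.0169), a call that ended under 5 alternatives, with adjusted p of 0.083 without cKO PTU replicate 2, 0.0653 without cKO PTU+T3 replicate 1 and 0.353 under quantile normalization. Gyg, the glycogenin that primes the particle, ranged from 136 to 169 FPKM with no call.

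Of the 5 glycogen breakdown members, 1 rose and 1 fell with T3 against PTU labelled cKO, and 1 rose and 2 fell in WT. Over all tested genes, 46.7% were called labelled cKO and 44.1% in WT. Pygb, the brain-type phosphorylase (chromosome 2, 150786796 to 150831748), had 193, 189.9 and 167 FPKM in PTU+T3 hearts labelled cKO and 189, 188 and 214 FPKM in WT, against 339, 327 and 309 FPKM in PTU hearts labelled cKO and 375, 301 and 423 FPKM in WT, and 350.3, 399 and 307 FPKM on chow labelled cKO and 337, 289 and 283 FPKM in WT. PTU+T3 hearts lay below all others, while PTU and chow hearts overlapped. It fell against PTU (log2 fold change -0.83, SE 0.126, adjusted p = 6.8e-05 labelled cKO; log2 fold change -0.88, SE 0.126, adjusted p = 4.44e-05 in WT) and against chow by 0.93 labelled cKO (adjusted p = 0.000143) and 0.62 in WT (adjusted p = 0.00467). The muscle phosphorylase Pygm stood at 0.0008 with T3 labelled cKO (adjusted p = 0.997), which turned to -0.30 under quantile normalization, and fell by 0.45 in WT (adjusted p = 0.0377). Its share of both forms was 68.4, 71.3 and 72.7% in PTU+T3 hearts labelled cKO and 69.9, 63.5 and 66.9% in WT, against 55.1, 54.3 and 63.5% in PTU hearts labelled cKO and 61.2, 59.7 and 58.4% in WT.

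Phosphorylase kinase switches the phosphorylases on. Its muscle catalytic subunit Phkg1 (chromosome 5, 129863431 to 129879134) had 12.3, 14.4 and 18.6 FPKM in PTU+T3 hearts labelled cKO and 17.0, 16.3 and 13.5 FPKM in WT, against 10.4, 8.76 and 11.6 FPKM on PTU labelled cKO and 8.61, 5.39 and 3.24 FPKM in WT. On chow it had 13.7, 14.8 and 14.5 FPKM labelled cKO and 23.4, 23.8 and 10.3 FPKM in WT. Every PTU+T3 heart lay above every PTU heart. Labelled cKO, neither T3 against PTU nor PTU against chow was called (adjusted p = 0.164 and 0.312), while in WT it rose with T3 (log2 fold change 1.37, SE 0.288, adjusted p = 0.00136) and fell on PTU (log2 fold change -1.57, SE 0.288, adjusted p = 0.00198; 0.0534 when only the compared groups were fitted). Sumf2 on the other strand shares 9.68% of its exon bases. On PTU the 3 hearts labelled cKO lay above the 3 WT hearts, with an unadjusted p of 0.013 and an adjusted p of 0.911. The muscle alpha subunit Phka1 rose with T3 labelled cKO (log2 fold change 0.65, SE 0.181, adjusted p = 0.00804; 0.0505 without cKO PTU+T3 replicate 1).

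Stbd1, which binds glycogen and is linked to its delivery to lysosomes (chromosome 5, 92603051 to 92606579), varied widely between hearts of one group. It had 10.5, 5.27 and 0.956 FPKM in PTU+T3 hearts labelled cKO and 0.537, 25.7 and 11.5 FPKM in WT, 18.7, 25.7 and 9.26 FPKM in PTU hearts labelled cKO and 15.9, 12.7 and 14.2 FPKM in WT, and 0.623, 0.715 and 0.390 FPKM on chow labelled cKO and 14.8, 10.8 and 0.908 FPKM in WT. In 6 hearts it stayed under 1 FPKM, namely all 3 labelled cKO on chow, WT chow replicate 3, WT PTU+T3 replicate 1 and cKO PTU+T3 replicate 3, and in the other 12 it was 5.27 FPKM or more. With limma it was called only on PTU against chow labelled cKO (log2 fold change 3.48, SE 0.987, adjusted p = 0.0308), lost under 6 alternatives, which include leaving out cKO chow replicates 1, 2 or 3 (0.0861, 0.0721 and 0.0697) or cKO PTU replicates 1 or 2 (0.0799 and 0.0898). Of the 20 tested genes whose levels correlated most in size with Stbd1 over the 18 hearts, 10 lie on chromosome 5, as Stbd1 does, while 6.27% of tested genes do.

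**Figure D4:**
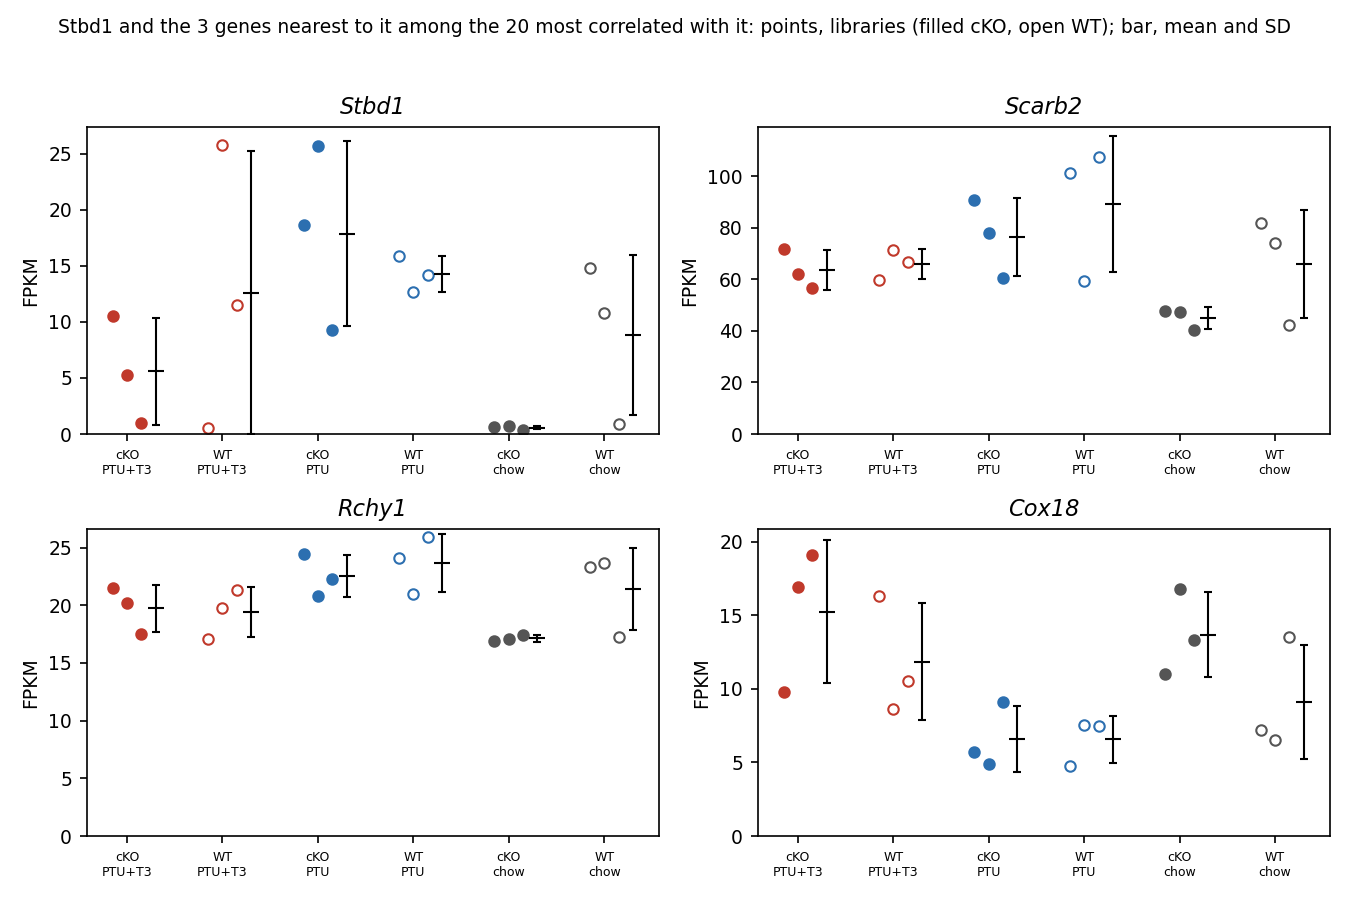
FPKM (vertical axes, from 0) of Stbd1 and of the 3 genes nearest to it among the 20 tested genes most correlated with it in size, by library and group; filled points are hearts labelled cKO, open points WT, and the bar is the mean with its SD (n = 3). Stbd1 is either under 1 FPKM or at 5.27 FPKM and above; the 6 hearts with low Stbd1 have the lowest Rchy1, and they overlap the others in Scarb2, where they lie low, and in Cox18, where they lie high.

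Calls were shared between genotypes as follows. The like shares over all tested genes were not computed, so the sharing cannot be read as particular to the members. With T3 against PTU limma called 46.7% of all tested genes labelled cKO and 44.1% in WT. On PTU against chow it called 16.0% and 16.8%. Of 21 members that rose with T3 against PTU labelled cKO and 14 in WT, 13 are the same genes (61.9% and 92.9% of each list). Of 6 that fell labelled cKO and 11 in WT, 5 are shared (83.3% and 45.5%). Among the falls on PTU against chow, 10 labelled cKO and 11 in WT share 7 (70% and 63.6%), namely Pgk1, Pkm, Mpc2, Pdhb, Dlat, Pdk4 and Gbe1. These comparisons have no library in common. Members called in one genotype alone were not shown to differ between genotypes, because no interaction was called.

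**Figure D5:**
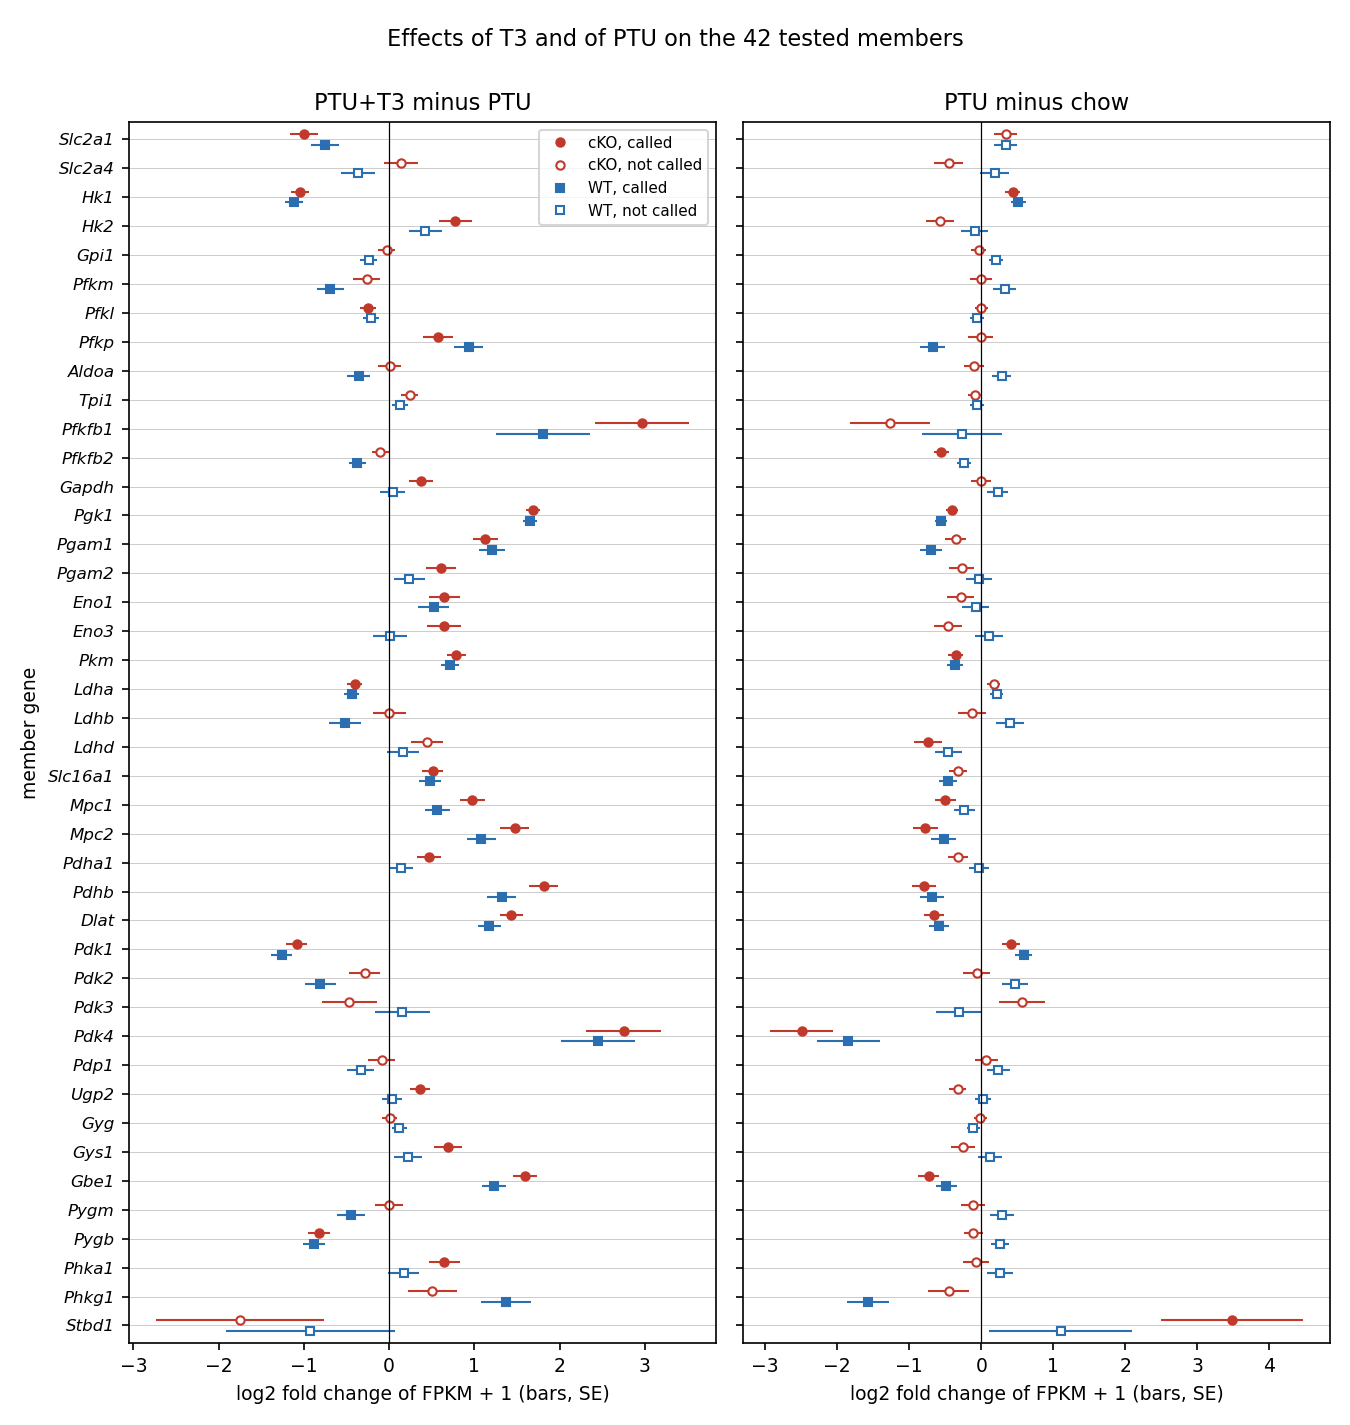
Log2 fold change of FPKM + 1 (horizontal axes, bars are SE) for each tested member: left, PTU+T3 minus PTU; right, PTU minus chow. Circles are hearts labelled cKO, squares WT, and filled symbols are called; Pgk1, Pdhb, Dlat, Mpc2, Gbe1 and Pdk4 lie right of 0 on the left and left of 0 on the right in both genotypes, Hk1 and Pdk1 the reverse, and the PTU libraries enter both panels.

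PTU+T3 hearts also differed from chow hearts, the animals that had neither PTU nor T3. In hearts labelled cKO 16 of 42 members were called (38.1%), beside 20.9% of all tested genes, with 11 higher (11.7% of all tested genes) and 5 lower (9.15%). In WT there were 11 (26.2%), beside 14.7% of all tested genes, with 7 higher (7.68% of all) and 4 lower (7.00%). The groups did not overlap for 24 of 42 members labelled cKO, beside 41.7% of all tested genes, and for 18 of 42 in WT, beside 31.4%. In both genotypes Pgk1, Pgam1, Pkm, Mpc2, Pdhb, Dlat and Gbe1 were higher, and Hk1, Pfkfb2, Pdk1 and Pygb were lower. Hearts labelled cKO had Pfkp, Pfkfb1, Mpc1 and Phka1 higher and Slc2a1 lower in addition. The calls of Pgk1, Gbe1, Hk1, Pdk1, Pfkfb2 and Pygb held under all 15 alternatives in both genotypes.

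In WT, without PTU+T3 replicate 3 the calls of Pgam1, Pkm, Mpc2, Pdhb and Dlat ended (adjusted p = 0.0997, 0.0943, 0.178, 0.103 and 0.0512), which left 6 members called. Single other libraries also ended calls in WT: Pgam1 ended without WT chow replicate 1 or 2 or WT PTU+T3 replicate 1 or 2 (up to 0.104), Pkm without WT chow replicate 3 or WT PTU+T3 replicate 1 or 2 (up to 0.186), Mpc2 without WT chow replicate 1 or 3 or WT PTU+T3 replicate 1 (up to 0.117), and Pdhb without WT chow replicate 1 or 3 (up to 0.0613). Labelled cKO, Pfkfb1, Mpc1, Phka1 and Slc2a1 lost their calls without cKO chow replicate 3 (adjusted p = 0.187, 0.103, 0.131 and 0.0562), and Pfkp without cKO chow replicate 1 (0.0858) or 2 (0.114) or cKO PTU+T3 replicate 1 (0.0969) or 3 (0.0905). Without cKO PTU+T3 replicate 1 the calls of Pfkfb1, Mpc1 and Phka1 ended (0.1, 0.0903 and 0.165), and without replicate 2 those of Pfkfb1, Mpc1 and Pkm (0.157, 0.115 and 0.0517). Mpc1 also ended without cKO chow replicate 1 (0.0688), and Pfkfb1 and Phka1 without cKO chow replicate 2 (0.0655 and 0.0719). With the hearts of highest atrial sum left out, 10 members were called labelled cKO (6 higher, 4 lower) and 7 in WT (2 higher, 5 lower). Quantile normalization gave 10 higher and 10 lower labelled cKO and 5 higher and 8 lower in WT.

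No member passed the test between genotypes. Hearts labelled cKO against WT gave 0 of 42 called members on PTU+T3, on PTU, on chow and averaged over treatments, beside 0.00% of all tested genes in each. At an unadjusted p under 0.05 the counts were 1 on PTU+T3 (Pdhb), 1 on PTU (Phkg1), 2 on chow (Pfkp and Stbd1) and 0 averaged. The groups did not overlap for 4 of 42 members on PTU+T3, beside 8.54% of all tested genes. On PTU this held for 1 of 42, beside 7.52%, and on chow for 2 of 42, beside 8.51%. These counts are near or below the shares of all tested genes. The interactions of T3 and of PTU with genotype likewise gave 0 calls, beside 0.00% of all tested genes, with 1 member (Eno3) and 5 members (Phkg1, Pfkp, Slc2a4, Pfkfb2 and Ugp2) at an unadjusted p under 0.05. A missing call does not show equality: for Pdhb with T3, the interval of 2 SE on either side of the interaction ran from 0.015 to 0.973 on the log2 scale, and for Pgk1 from -0.20 to 0.28.

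By a q-value of 0.05 in the authors' deposited table, 15 members were called in WT on PTU against chow, 12 of them also by limma, which did not call Ldhd, Pdk2 and Stbd1 and alone called Pkm. With T3 against PTU in WT the authors' deposited table called 23 members, 22 of them also by limma, which did not call Hk2 (q = 0.0192) and alone called Aldoa (q = 0.226), Eno1 and Pygm. On PTU+T3 against chow in WT the authors' deposited table called 13 members, 10 of them also by limma, which did not call Pdk4 (q = 0.0042), Pfkfb1 and Phka1 and alone called Pkm. The members called by both had the same direction.

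In the authors' deposited table, 2 members passed a q-value of 0.05 between genotypes with T3 and the same 2 on chow. For Pfkfb1 the authors' deposited table gives 22.0 FPKM labelled cKO and 13.1 FPKM in WT with T3 (q = 0.00736), and 7.23 and 4.18 FPKM on chow (q = 0.0452). For Stbd1 the authors' deposited table gives 5.37 FPKM labelled cKO and 12.2 FPKM in WT with T3 (q = 0.00736), and 0.575 and 8.83 FPKM on chow (q = 0.00987). These are the members with the widest limma standard errors, and limma gave adjusted p of 0.979 and 0.979 with T3 and 0.999 and 0.999 on chow.

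Of 92 further genes of glucose and glycogen use listed by role, 84 were tested. With T3 against PTU 38 rose and 18 fell in hearts labelled cKO (66.7% called, beside 46.7% of all tested genes), and 31 rose and 20 fell in WT (60.7%, beside 44.1%). Mlxipl, the glucose-sensing transcription factor ChREBP, rose with T3 in WT to 16.1 ± 3.61 against 3.71 ± 0.332 FPKM on PTU (SD, n = 3 each; log2 fold change 1.84, SE 0.159, adjusted p = 3.26e-07).

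Pdp2, a phosphatase that switches pyruvate dehydrogenase on, rose with T3 in WT to 14.5 ± 2.50 against 3.08 ± 0.662 FPKM (log2 fold change 1.92, SE 0.211, adjusted p = 4.1e-06). Gpd2, the mitochondrial glycerol phosphate dehydrogenase and a known thyroid hormone target in rat liver, rose to 5.84 ± 0.582 against 1.61 ± 0.0862 FPKM (log2 fold change 1.39, SE 0.111, adjusted p = 1.82e-07). Bsg, basigin, the chaperone of MCT1, rose to 1574 ± 441 against 598 ± 61.3 FPKM (adjusted p = 1.49e-05). Among those that fell were Prkag2, a subunit of AMP-activated kinase, at a log2 fold change of -1.27, the monocarboxylate transporter Slc16a7 at -1.19, Sord, sorbitol dehydrogenase, at -1.11, and Pygl, the liver phosphorylase, at -1.04.

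On PTU against chow, 5 of these 84 genes rose and 15 fell labelled cKO (23.8% called, beside 16.0% of all tested genes), and 5 rose and 14 fell in WT (22.6%, beside 16.8%). In WT, those that fell included Mlxipl at a log2 fold change of -1.10 (adjusted p = 0.000286), Egln3, an oxygen-sensing hydroxylase, at -0.95 (adjusted p = 0.00477), Pdp2 at -0.83 (adjusted p = 0.0143) and the nuclear receptor Ppard at -0.80 (adjusted p = 0.000381). Those that rose included Slc16a7 (1.01), Pygl (0.94), Tbc1d4, a brake on GLUT4 traffic (0.47), and Ppp1r3f, a glycogen-targeting phosphatase subunit (0.47).

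Some markers of other cell types were called between treatments too. With T3 against PTU, 24.9% of all tested genes labelled cKO and 22.3% in WT were called higher, and 21.8% lower at both labels. On PTU against chow, 9.59% of all tested genes labelled cKO and 8.76% in WT were called lower. Of 10 macrophage markers, 6 rose with T3 against PTU labelled cKO and 9 in WT, and their summed level lay between 492 and 833 FPKM in PTU+T3 hearts and between 193 and 642 FPKM in PTU hearts. On PTU against chow, 0 of 10 fell labelled cKO and 6 in WT. Of 4 tested skeletal muscle fibre markers, 2 rose with T3 against PTU at both genotype labels, and the sum of all 10 lay between 8.04 and 24.5 FPKM in PTU+T3 hearts and between 1.93 and 5.53 FPKM in PTU hearts, without overlap. Within that sum Tnni2 alone read between 3.85 and 20.5 FPKM in PTU+T3 hearts and between 0.01 and 2.02 FPKM in PTU hearts. Myh1, Myh2, Myh4 and Actn3 stayed at or under 0.136 FPKM in every heart. Of 5 tested erythroid markers, 3 fell on PTU against chow labelled cKO and 0 in WT, and 1 rose with T3 against PTU labelled cKO and 0 in WT. The erythroid sum labelled cKO lay between 643 and 1109 FPKM in PTU+T3 hearts, between 343 and 858 FPKM in PTU hearts and between 1107 and 1924 FPKM in chow hearts. Of 4 tested Schwann cell and neuron markers, 2 fell with T3 against PTU labelled cKO and 1 in WT, and of 6 fibroblast markers 1 fell labelled cKO and 0 in WT. Of 7 genes listed as atrial markers 1 rose at both genotype labels. On that list Myl1 read 219 to 378 FPKM in PTU+T3 hearts and 33.3 to 146 FPKM in PTU hearts, without overlap. The others on the list, such as Myl7, Myl4 and Sln, overlapped between these treatments. Of the tested endothelial and adipocyte markers, 0 were called in these comparisons. A count of 1 called marker in a list is near or below the share of all tested genes in that direction. The part of these cell types in the results above was not tested. With the hearts of highest atrial sum left out, T3 against PTU called 23 members labelled cKO and 22 in WT. Pgk1, Pdhb, Dlat, Mpc2, Gbe1, Pdk4, Hk1, Pdk1 and Pygb were among the calls in both. That setting kept cKO PTU replicate 3 and WT PTU+T3 replicate 1, the hearts highest in Myl7 of their groups (799 and 487 FPKM). The part of atrial tissue in these calls was not tested.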

How the data were processed

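Hearts were flash frozen and polyadenylated RNA was sequenced from TruSeq V2 libraries, a kit that does not mark the strand, per the labels' protocols. Bowtie2, Cufflinks and the mm10 build are named, without versions, per the submitters' processing notes. The values used are gene-level FPKM per library, as the authors deposited them; the authors' deposited tables also hold p-values and q-values between genotypes and between treatments in WT, given only where named. Those tables' log2 fold changes were not used. Counts were not used here, so absolute depth is unknown; over 3673 genes of at most 0.3 FPKM, relative depth differed by up to 1.54 times. The floor of the table is 0.01 FPKM, and 2 genes with 5 failed estimates were left missing.

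From the FPKM, limma 3.58.1 in R 4.3.3 fitted log2(FPKM + 1) with 6 group means, a trended and robust spread and 12 residual degrees of freedom, for the 12587 genes that reached 1 FPKM in 3 or more libraries. P-values were adjusted by Benjamini-Hochberg over these genes within each of 12 comparisons and called at 0.05. The script was tested on simulated data. Alternatives were a pseudocount of 0.1, no filter, a mean of at least 5 FPKM, quantile and upper-quartile scaling, no trend, and library weights. Others were only the compared groups, each library left out, and the heart of highest atrial sum in each group left out. All members are described; of the other pathway genes, at most the 5 called with the largest and the 5 with the lowest log2 fold change in 2 WT comparisons are named. Some of these genes are not reported here. Members, lists and tests were chosen with earlier results of these data known. Promoters and coordinates come from RefSeq GRCm38.p6, which is mm10, and overlaps and close copies (95% identity over 50% of a transcript) from GENCODE models of the same build; promoter windows were found for 41 of 43 members. Python 3.11.15, pandas 2.3.3 and matplotlib 3.10.9 were used.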

Additional observations from a re-analysis of the deposited data

How the results depend on the processing

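No paired analysis was possible because the labels carry no shared replicate numbers. Leaving out 1 library at a time gave 7 to 17 called members for PTU against chow labelled cKO and 7 to 12 in WT, 22 to 27 for PTU+T3 against PTU labelled cKO and 21 to 25 in WT, and 12 to 16 for PTU+T3 against chow labelled cKO and 6 to 11 in WT; every comparison of genotypes and both interactions stayed at 0. With the heart of highest atrial sum in each group left out, PTU+T3 against chow gave 10 members labelled cKO and 7 in WT. By the authors' deposited q-values 2 members were called between genotypes on PTU+T3 and 2 on chow, against 0 with limma. Under quantile normalization the log2 fold change with T3 labelled cKO turned to -0.35 for Aldoa (adjusted p = 0.000958) and -0.30 for Pygm (adjusted p = 0.0406); the cause was not tested. Upper-quartile scaling moved the median of all tested genes to -0.10 for T3 against PTU labelled cKO, so its splits there are relative to that shift, and split the calls of PTU+T3 against chow labelled cKO as 9 higher and 7 lower. Stbd1, Pfkfb1 and Pdk4 have the widest standard errors of the tested members, and without counts no detection limit can be given for Aldoc.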

Other observations

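The 6 hearts with Stbd1 under 1 FPKM were also the 6 with the lowest Rchy1, chosen for display after its values were seen. Rchy1 read 16.9, 17.1 and 17.5 FPKM on chow labelled cKO, all with low Stbd1, and 23.3, 23.7 and 17.3 FPKM in WT, where replicate 3 was the low one. Rchy1 and Stbd1 both lie on chromosome 5. Of the 20 tested genes most correlated with Stbd1 in size over the 18 libraries, 10 (50%) lie on that chromosome, beside 789 of 12587 tested genes (6.27%), and they span 90214725 to 118155458 (GRCm38). Cox18, in the same stretch, ran opposite to Stbd1, with a correlation of -0.82, and Rchy1 ran with it at 0.85. These correlations are descriptive, since the libraries share groups and the genes were ranked by their likeness.

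Ddx3y, on the Y chromosome, read 18 to 33.7 FPKM and Xist 0.0475 to 0.267 FPKM in all 18 hearts, so X-linked members such as Pgk1, Pdha1, Pfkfb1, Pdk3 and Phka1 were measured in hearts alike in these genes.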
